A study of Homo sapiens with 8 samples.

Results

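The endothelin genes described here are EDN1, which encodes the peptide endothelin-1, its receptors EDNRA and EDNRB, and ECE1, the enzyme that makes the active peptide. EDN1 was chosen by its measured levels, for its large fall from Matrigel, and the other members were taken as its receptors and its processing enzyme. Earlier results of these data were known when the members and the gene lists below were chosen. Their p-values and counts are therefore not fully independent of that choice. All 4 of the 4 genes were tested, among 18201 genes tested and 58217 genes with at least 1 transcript matched to an annotation. The 8 libraries came from oligodendrocyte progenitor cells (OPCs) made from the human embryonic stem cell line H9, which is long established, and carried no forced SOX10. The cells had been kept for 2 days in the same OPC medium on 1 of 3 coatings: Matrigel, a basement membrane extract that served as the control (2 libraries, replicates 2 and 3, with a replicate 1 not analysed here); recombinant vitronectin, VN (3 libraries); or VNP2, a peptide designed from vitronectin (3 libraries). Per the paper, its designed peptides were produced as recombinant fusions with mussel adhesive protein and immobilized on chemically activated plates. The study asked how the coating changed gene expression in these progenitors. All libraries come from 1 cell line, and the labels do not say whether replicates were separate cultures, so the p-values below measure only the spread between these samples.

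Endothelins are short peptides that are cut from larger precursors, and in vessel walls endothelin-1 is known as a strong constrictor released by endothelial cells. They act on the G protein coupled receptors EDNRA and EDNRB, of which the former prefers endothelin-1 and endothelin-2 and the latter binds all endothelins about equally. In the nervous system EDNRB is found on astrocytes and on cells of the oligodendrocyte lineage, and endothelin-1 is known to act on progenitor migration and differentiation.

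EDN1 was the member with the largest difference between coatings, with a mean on VN and VNP2 that was a small fraction of that on Matrigel. ECE1 was lowest on VNP2, EDNRA was highest on VNP2, and EDNRB differed little. On VNP2 the ligand and its converting enzyme were thus lower than on Matrigel, while EDNRA was higher.

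The libraries held 37997896 to 39429453 estimated counts, in which a read pair counts once. VN replicate 1 stood apart: compared with VN replicates 2 and 3 it gave a median chi-square per gene of 2.25 and 2.62, whereas those replicates gave 0.782 and sampling alone gives 0.455. The cells carried the progenitor transcripts OLIG1 (mean 48.2, 62.6 and 66.9 TPM, an abundance corrected for transcript length and library depth, on Matrigel, VN and VNP2) and OLIG2 (41.3, 54.0 and 50.8 TPM). SOX10, which is also in the list of OPC markers read below, was near 0, with 20 estimated counts over the 8 libraries. From the same list, NKX2-2 had means of 13.7, 15.4 and 18.2 TPM on Matrigel, VN and VNP2. PDGFRA had 3.76, 4.53 and 4.94 TPM and CSPG4 had 0.642, 0.804 and 1.06 TPM. Relative to Matrigel, EDN1, ECE1 and EDNRB stood higher on VN and VNP2 in TPM than in the authors' normalized counts, which are described below. EDNRB on VN was at 113.6% of Matrigel in TPM and at 107.3% in normalized counts. Small differences in TPM between coatings, also in the summed levels below, are therefore not read as changes.

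The promoter sequences of EDN1 and ECE1, the members that were both lowest on VNP2, are shown because EDN1 is known to be driven through short elements close to its start. Each is the 250 bases before the RefSeq start site on GRCh38.p14, read 5′ to 3′ on the strand of the gene, with matches to the searched motifs in capitals. The window of EDN1 lies on the plus strand at chr6:12290111-12290360 and that of ECE1 on the minus strand at chr1:21345505-21345754.
EDN1: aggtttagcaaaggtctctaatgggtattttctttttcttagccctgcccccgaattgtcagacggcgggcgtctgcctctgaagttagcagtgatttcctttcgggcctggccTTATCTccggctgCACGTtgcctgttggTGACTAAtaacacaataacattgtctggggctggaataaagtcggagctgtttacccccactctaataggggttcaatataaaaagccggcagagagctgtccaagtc
ECE1: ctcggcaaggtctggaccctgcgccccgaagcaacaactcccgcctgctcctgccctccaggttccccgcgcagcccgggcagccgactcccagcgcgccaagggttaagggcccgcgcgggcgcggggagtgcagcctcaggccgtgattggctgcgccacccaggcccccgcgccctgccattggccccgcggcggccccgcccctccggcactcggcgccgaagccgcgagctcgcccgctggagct

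The motifs were chosen after the EDN1 promoter had been seen and were searched on both strands: TGANTCA and TGACTAA for AP-1, AGATAA and TGATAA for GATA factors, GGAATG for TEAD factors, and ACGTG and GCGTG for hypoxia response elements. EDN1 held TGACTAA at position -108 from the start, AGATAA on the reverse strand at -136 and ACGTG on the reverse strand at -123. Among 35116 RefSeq promoter windows of the same length these letters are found in 1.62, 9.17 and 18.5%. ECE1 held none of the motifs in this window. EDNRA held 1 match, GCGTG (found in 32.2% of windows), and EDNRB held 6: GGAATG (11.9% of windows), ACGTG at 2 positions and GCGTG at 3, of which the first and the second share 1 base. The RefSeq start of EDNRA lies 165 bases downstream of the GENCODE start of its transcript EDNRA-208. The EDNRA match, at -51 from the RefSeq start, is thus downstream of that GENCODE start. A match describes only the letters.

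EDN1 (ENSG00000078401) lies on the plus strand of chromosome 6 at 12290363 to 12297194 (GRCh38) and has 1 annotated transcript. Its levels are given in counts per gene that the authors had normalized for library size and for differences in transcript length between libraries. These were 540 and 606 in the Matrigel libraries. On VN they were 39.1, 46.8 and 50.6, and on VNP2 35.6, 19.96 and 22.9. The lowest Matrigel library thus lay far above every library on VN and VNP2, and the highest VNP2 library lay just below the lowest VN library.

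**Figure D1:**
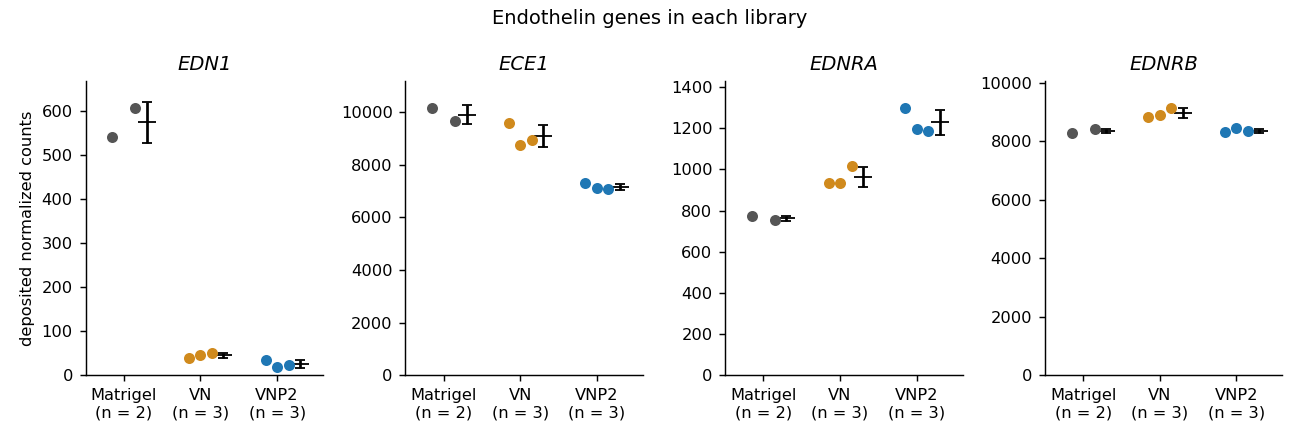
The vertical axes give deposited normalized counts of EDN1, ECE1, EDNRA and EDNRB, each panel from 0, for 2 Matrigel, 3 VN and 3 VNP2 libraries; points are libraries, and the bar beside them is the mean with the SD. EDN1 sits at 540 and 606 on Matrigel and at 50.6 or lower elsewhere, ECE1 steps down and EDNRA steps up from Matrigel to VN to VNP2, and EDNRB is highest on VN.

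As a mean, EDN1 held 573 ± 46.7 normalized counts on Matrigel (SD, n = 2), 45.5 ± 5.87 on VN (n = 3) and 26.1 ± 8.31 on VNP2 (n = 3). The VN mean was 7.94% of the Matrigel mean and the VNP2 mean 4.56%, or 12.6-fold and 21.9-fold lower. edgeR fitted a log2 fold change of -3.65 (SE 0.179) for VN and of -4.45 (SE 0.192) for VNP2. These values led to the choice of EDN1 and are therefore given with no test. Ordered from the most negative fold change, EDN1 stood 11th of the 18201 genes on VN and 13th on VNP2.

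The comparison of VNP2 with VN was not used to pick EDN1. On VNP2 the EDN1 mean was lower than on VN by 1.74-fold, a log2 fold change of -0.80 (SE 0.217), and the libraries did not overlap, as was so for 23.6% of all genes. Adjusted p-values here and below are those of Benjamini and Hochberg over all genes, and a gene is called at an adjusted p under 0.05, which 5.10% of genes reached in that comparison (3.09% higher and 2.01% lower). EDN1 was not called by the edgeR quasi-likelihood test (adjusted p = 0.068). Of 16 alternative fits 4 passed the threshold, among them those without VN replicate 1 (-0.89, edgeR adjusted p = 0.0409) and without VNP2 replicate 1 (-1.08, edgeR adjusted p = 0.0214), and the adjusted p ranged from 0.0214 to 0.193. The libraries held only 39, 47 and 51 estimated counts on VN and 36, 20 and 23 on VNP2, so the counting error was wide.

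Markers of cells that can make or respond to endothelin were read beside this fall. In bulk RNA, fewer cells of a type and less RNA per cell cannot be told apart. Of the smooth muscle and pericyte markers, 6 of the 9 that could be tested fell on VN and 6 of 9 on VNP2, where a fall was called in 9.60 and 9.13% of all genes, and without VN replicate 1 the count on VN was 7. Their summed level was 817 to 847 TPM on Matrigel, 296 to 318 on VN and 264 to 297 on VNP2. The largest part of that sum was TAGLN, with means of 497, 121 and 106 TPM. The actin-binding protein gene TAGLN fell by 2.12 on VN and 2.29 on VNP2 on the log2 scale, CNN1 fell by 1.84 in both, and MYL9 fell by 1.41 and 1.66. PDGFRB (log2 fold changes of -0.29 and 0.12), KCNJ8 (-0.35 and -0.18) and ABCC9 (-0.19 and -0.23) were not called on either coating. PDGFRB was higher on VNP2 than on VN by 0.40 (edgeR adjusted p = 0.0234). The defining smooth muscle gene MYH11 was near 0 on every coating (means 0.00994, 0.0159 and 0.0417 TPM), as was DES (0.191, 0.189 and 0.0541 TPM). The part of these genes in the EDN1 result was not tested.

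Of the endothelial markers, 8 were tested, and 2 of 8 fell on VN and 2 of 8 on VNP2, beside the same 9.60 and 9.13% of all genes, with summed levels of 21.2 to 22.8 TPM on Matrigel, 22.1 to 26.3 on VN and 22.5 to 23.4 on VNP2. The genes that fell were TEK, an angiopoietin receptor (log2 fold changes of -0.996 and -1.36), and CDH5, the endothelial cadherin (-1.93 and -1.60, at a mean of 0.477 TPM or less). KDR (7.88, 8.72 and 8.83 TPM) and CLDN5 (8.84, 12.01 and 11.5 TPM), which were not called, made up most of the summed level. The defining markers PECAM1 and VWF were too low to test, with means between 0.0290 and 0.143 TPM.

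The genes whose library profiles were nearest to that of EDN1, after centring on the log2 scale over the 8 libraries, were ANKRD1, ADGRG6, ANXA3 and IL11 among 14379 genes compared. Their root mean square difference from EDN1 was 0.26, 0.33, 0.43 and 0.50 log2 units. ANKRD1, which encodes a nuclear ankyrin repeat protein, held 6026 and 6818 normalized counts on Matrigel, 414 to 484 on VN and 303 to 428 on VNP2. IL11, a cytokine of the interleukin-6 family, held 651 and 752 on Matrigel, 74.6 to 133 on VN and 49.2 to 86.4 on VNP2. As for EDN1, every Matrigel library of these genes lay above all others. This order is a description, since the genes were sorted by the same libraries.

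**Figure D2:**
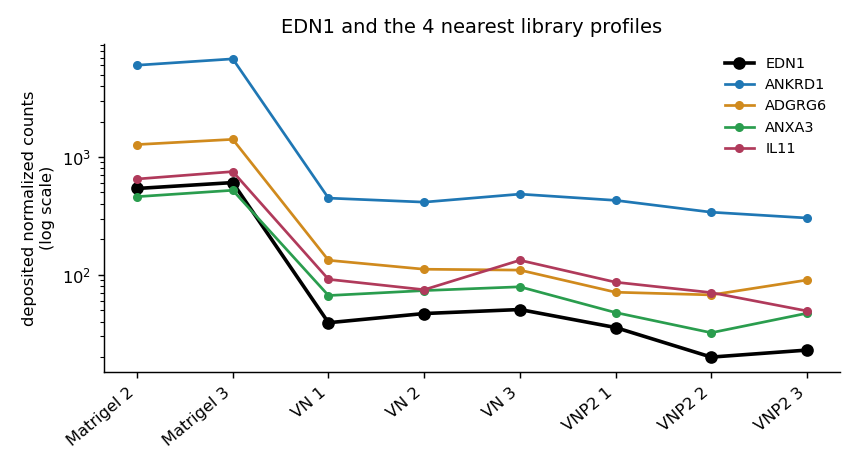
Deposited normalized counts on a log axis in each of the 8 libraries, for EDN1 and the 4 genes with the nearest profiles. All 5 lines drop between the Matrigel and the VN libraries, and EDN1 reaches the lowest level, 19.96 on VNP2.

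ECE1 (ENSG00000117298), the membrane metalloprotease that cuts big endothelin to the active peptide, lies on the minus strand of chromosome 1 at 21217247 to 21345572 (GRCh38). Its normalized counts were 10166 and 9647 on Matrigel, then 9573, 8771 and 8937 on VN, and 7302, 7113 and 7063 on VNP2. The VNP2 libraries lay closely together and below all others, and the highest VN library lay just under the lower Matrigel library.

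ECE1 was lower on VNP2 than on Matrigel by a log2 fold change of -0.47 (SE 0.0445, edgeR quasi-likelihood test, adjusted p = 4.83e-05), in 3 of 3 libraries. Of all genes tested, 16.6% were called in that comparison, and for 48.0% the libraries did not overlap. The fall against VN was also past the threshold, at -0.34 (SE 0.0403, edgeR adjusted p = 0.000767). Both calls held in all 17 alternative fits. Between VN and Matrigel the log2 fold change was -0.12 (SE 0.0446, interval -0.21 to -0.036), which was not called (edgeR adjusted p = 0.0912). In that comparison 15.3% of all genes were called, and the libraries of ECE1 did not overlap, as was so for 44.4% of all genes. Without VN replicate 1 the difference was -0.16 and was called (edgeR adjusted p = 0.0121).

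The transcripts of ECE1 start at several places, and the most upstream group, between 21345137 and 21345572, held most of its RNA. Their share of the ECE1 TPM was 83.1% ± 2.31 on Matrigel (SD, n = 2), 87.9% ± 1.95 on VN (n = 3) and 84.2% ± 4.27 on VNP2 (n = 3). The level from these starts was 64.3 ± 0.294 TPM on Matrigel, 66.0 ± 0.651 on VN and 49.4 ± 3.15 on VNP2. All ECE1 transcripts together on VN were at 97.2% of Matrigel in TPM but at 91.8% in normalized counts. The order of Matrigel and VN in TPM is therefore not read. The lower level of ECE1 on VNP2 was thus seen at its main start sites. The starts between 21290257 and 21290489 held 13.3% on Matrigel, 6.83% on VN and 11.3% on VNP2. That share ran from 6.58 to 16.5% within VNP2 alone, so the order of these means is not read further.

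EDNRA (ENSG00000151617), the receptor that favours endothelin-1, lies on the plus strand of chromosome 4 at 147480917 to 147544954 (GRCh38). Its deposited normalized counts were 772 and 755 on Matrigel, then 936, 934 and 1017 on VN, and 1299, 1198 and 1186 on VNP2. Every VN library lay above both Matrigel libraries, and every VNP2 library lay above all VN libraries. Over all genes, libraries did not overlap for 44.4% between VN and Matrigel, 48.0% between VNP2 and Matrigel, and 23.6% between VNP2 and VN.

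The test of EDNRA rests on these deposited values, because the transcripts that could be matched by identifier held only 16.9 to 50.6% of the deposited count. With limma on the log2 of the deposited counts plus 1, EDNRA rose by 0.33 on VN (SE 0.0653, limma adjusted p = 0.0057) and by 0.68 on VNP2 (SE 0.0653, limma adjusted p = 2.77e-05) relative to Matrigel. It was also higher on VNP2 than on VN, by 0.35 (SE 0.0584, limma adjusted p = 0.00466). By limma, 16.8, 17.7 and 5.58% of all genes were called in the 3 comparisons, and 6.63, 8.14 and 3.36% were called higher. The rise on VN lost its call without Matrigel replicate 3, where it was 0.32 (limma adjusted p = 0.053), while the other calls held without each library in turn. The planned edgeR fit on the matched transcripts gave 0.63 (SE 0.391), 0.92 (SE 0.390) and 0.29 (SE 0.332), and none was called (edgeR adjusted p = 0.32, 0.146 and 0.682).

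A gene model on the same strand, AC093908.1, overlaps EDNRA. It held a mean of 63.1 on Matrigel, 77.6 with VN and 91.6 with VNP2, in normalized counts from matched transcripts, and its reads cannot be told apart from those of EDNRA where the models share sequence.

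EDNRB (ENSG00000136160), the receptor that binds all endothelins, lies on the minus strand of chromosome 13 at 77895481 to 77975529 (GRCh38). Its normalized counts were 8296 and 8412 on Matrigel, then 8846, 8898 and 9145 on VN, and 8301, 8440 and 8343 on VNP2. The VN libraries lay above all others, and the Matrigel and VNP2 libraries overlapped. Libraries did not overlap for 44.4% of all genes between VN and Matrigel and for 23.6% between VNP2 and VN.

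Relative to Matrigel, EDNRB differed on VN by a log2 fold change of 0.10 (SE 0.0325, edgeR quasi-likelihood test, adjusted p = 0.0624) and on VNP2 by 0.0016 (SE 0.0325, edgeR adjusted p = 0.983). The interval of the latter ran from -0.062 to 0.065, so the data allow only a small difference there. Between VNP2 and VN the difference was -0.10 (SE 0.029, edgeR adjusted p = 0.0845). The excess on VN passed the threshold in some alternatives. Against Matrigel it did so in 3 of 17 and against VNP2 in 2 of 17, and in both without VN replicate 1 (edgeR adjusted p = 0.0252 and 0.036).

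The starts of EDNRB between 77918799 and 77918830 held 69.5% ± 2.06 of its TPM on Matrigel (SD, n = 2), 71.9% ± 2.66 on VN (n = 3) and 69.4% ± 0.603 on VNP2 (n = 3). Those between 77919390 and 77919768 held 22.8, 20.4 and 22.2%. These shares differed between coatings by about as much as between libraries. The antisense gene RNF219-AS1, which overlaps EDNRB, held at most 8.58 normalized counts on a coating.

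**Figure D3:**
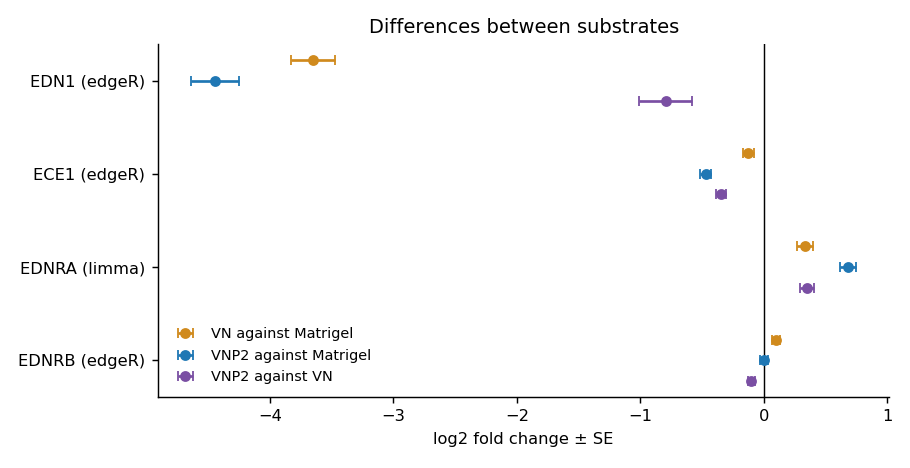
Log2 fold change with its SE for each member in the 3 comparisons, from edgeR for EDN1, ECE1 and EDNRB and from limma on deposited normalized counts for EDNRA. EDN1 reaches -4.45 on VNP2, ECE1 lies at -0.47 and EDNRA at 0.68 there, and EDNRB stays within 0.10 of 0 in every comparison.

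Levels of different genes were compared per transcript length, in TPM. EDNRB was the highest, with 131 to 155 TPM over the 8 libraries, followed by ECE1 with 58.0 to 79.1 TPM and EDN1 with 0.496 to 14.4 TPM. These ranges did not overlap. The matched transcripts of EDNRA held 1.86 to 9.14 TPM, which is a lower limit. EDNRA can therefore not be placed against EDN1 on Matrigel, but on VN and VNP2 even its lower limit was above EDN1 in every library.

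The balance of the receptors was followed as the ratio of EDNRB to EDNRA in each library. In deposited normalized counts, which are not per length and so give only the direction of change, it was 10.7 and 11.1 on Matrigel, then 9.46, 9.52 and 8.99 on VN, and 6.39, 7.04 and 7.03 on VNP2. The groups did not overlap, and the ratio was lowest on VNP2. Of the variation of its log2 value, 97.1% lay between coatings (exact permutation test, one-sided, p = 0.00357, 2 of 560 assignments and the smallest p that this design allows). The planned ratio of TPM, which for EDNRA counts the matched transcripts alone, gave 40.3% (exact permutation test, one-sided, p = 0.325).

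**Figure D4:**
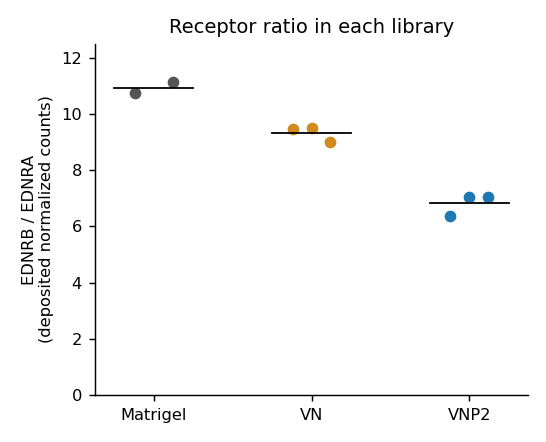
Ratio of EDNRB to EDNRA in deposited normalized counts, on an axis from 0, for each library; lines are group means. The ratio lies at 10.7 and 11.1 on Matrigel, between 8.99 and 9.52 on VN and at 7.04 or lower on VNP2.

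Of the other genes that make, cut or clear endothelins, 8 of 11 could be tested. On VN 0 rose and 3 fell, on VNP2 1 rose and 2 fell, and between VNP2 and VN 0 were higher and 1 was lower. Over all genes, a rise was called in 5.66% on VN and in 7.44% on VNP2, and a fall in 9.60 and 9.13%. Between VNP2 and VN 3.09% of all genes were higher and 2.01% lower. The median log2 fold changes of the 8 genes were -0.22, -0.37 and -0.0075, where the medians of all genes were 0.0044, 0.0024 and 0.00074. Without VN replicate 1, 2 rather than 3 fell on VN, as MME lost its call.

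Among the ligands, EDN3, the main partner of EDNRB in neural crest development, held 115 and 99.9 normalized counts on Matrigel, then 146, 132 and 149 on VN, and 157, 177 and 132 on VNP2. It rose on VNP2 by 0.53 (edgeR adjusted p = 0.0415), and on VN its log2 fold change was 0.41 (edgeR adjusted p = 0.111). EDN2 was too low to test, at 45 estimated counts over all libraries. The ligand that fell and the ligand that rose thus differed in level: EDN1 had a mean of 13.6 TPM on Matrigel against 2.04 for EDN3, and on VNP2 the means were 0.650 and 3.10 TPM.

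The proprotein convertases cut the endothelin precursor before ECE1 does. FURIN fell by 0.30 on VN (edgeR adjusted p = 0.00295) and by 0.36 on VNP2 (edgeR adjusted p = 0.000651), from 4591 and 4489 normalized counts on Matrigel to 3540 to 3917 on VN and 3454 to 3668 on VNP2. PCSK5 fell by 0.28 and 0.55 (edgeR adjusted p = 0.0161 and 0.000197) and was lower on VNP2 than on VN by a log2 fold change of -0.28 (edgeR adjusted p = 0.0223). PCSK6 had log2 fold changes of -0.63 and -0.37 and PCSK7 of -0.075 and -0.072, none of them called. The peptidase MME, or neprilysin, which degrades endothelin, fell on VN by 0.62 (edgeR adjusted p = 0.0481), and its value on VNP2 was -0.51 (edgeR adjusted p = 0.0925). The related peptidases ECEL1 (0.40 and 0.38) and KEL (-0.17 and -0.75) were not called, ECE2 held 1 estimated count in the matched transcripts and CMA1 held 0.

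Receptor coupling was read from 31 genes for G proteins, phospholipases, kinases and regulators, all of them tested. On VN 0 rose and 5 fell, on VNP2 2 rose and 5 fell, and between VNP2 and VN 2 were higher and 1 was lower, which became 6 and 2 without VN replicate 1. Over all genes, 5.66% rose and 9.60% fell on VN, 7.44% rose and 9.13% fell on VNP2, and 3.09% were higher and 2.01% lower between VNP2 and VN, so that the 2 rises on VNP2 were near the share of all genes. The medians were -0.096, -0.0023 and 0.077. RGS5, a brake on Gq and Gi signalling that is also a pericyte marker, fell from 4076 and 4358 normalized counts on Matrigel to 1283 to 1582 on VN and 750 to 881 on VNP2. Its log2 fold changes were -1.55 and -2.34, and it was lower on VNP2 than on VN by -0.79 (edgeR adjusted p = 0.00048). The kinase gene PRKCA fell by 0.54 and 0.45 and the arrestin gene ARRB1 by 0.51 and 0.45, whereas GNAI1, an inhibitory G protein subunit, rose by 0.44 on VNP2, was higher there than on VN by 0.53, and had a log2 fold change of -0.098 on VN that was not called.

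Factors known to act on the EDN1 promoter were taken as a list of 23, of which 22 were tested. On VN 1 rose and 8 fell, on VNP2 2 rose and 7 fell, and between VNP2 and VN 3 were higher and 0 lower, or 4 and 1 without VN replicate 1. These counts stand beside 5.66% higher and 9.60% lower over all genes on VN, 7.44 and 9.13% on VNP2, and 3.09 and 2.01% between VNP2 and VN. The medians were -0.12, -0.080 and 0.081. The largest falls were those of AP-1 subunits: FOSB fell by 3.06 on VN and 2.55 on VNP2, FOSL2 by 2.11 and 2.73, and FOSL1 by 2.11 and 1.69. FOSL2 held 1139 and 1185 normalized counts on Matrigel, 203 to 307 on VN and 134 to 205 on VNP2. The hypoxia-inducible factor EPAS1 went the other way and rose by 0.73 and 1.60. Of the other AP-1 subunits in the list, FOS fell by 1.52 and 0.88 and JUNB by 0.62 and 0.46. JUN fell by 0.42 on VN and was not called on VNP2 (-0.089, edgeR adjusted p = 0.221). JUND, the AP-1 subunit with the highest TPM, was called on neither (-0.064 and 0.15). The 3 factors that were higher on VNP2 than on VN were EPAS1 (0.87), FOS (0.64) and JUN (0.34). Whether any of these factors has a part in the EDN1 level was not tested.

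Other vasoactive peptides and their receptors served for comparison, and 16 of 27 were tested. On VN 0 rose and 3 fell, on VNP2 3 rose and 4 fell, and between VNP2 and VN 1 was higher and 0 lower, a count that was 0 without VN replicate 1. Over all genes 5.66% rose and 9.60% fell on VN, and 7.44% rose and 9.13% fell on VNP2. Between VNP2 and VN 3.09% of all genes were higher and 2.01% lower. The medians were -0.068, 0.092 and 0.19. The peptide genes NPPB, APLN and ADM fell on both VN and VNP2. NPPB, the B-type natriuretic peptide, held 255 and 255 normalized counts on Matrigel, 26.4 to 30.8 on VN, and 22.6 to 39.6 on VNP2. Its log2 fold changes were -3.13 and -3.09, those of APLN were -2.16 and -1.91, and those of ADM were -1.66 and -1.36. The receptor gene VIPR2 rose on VNP2 by 1.51.

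**Figure D5:**
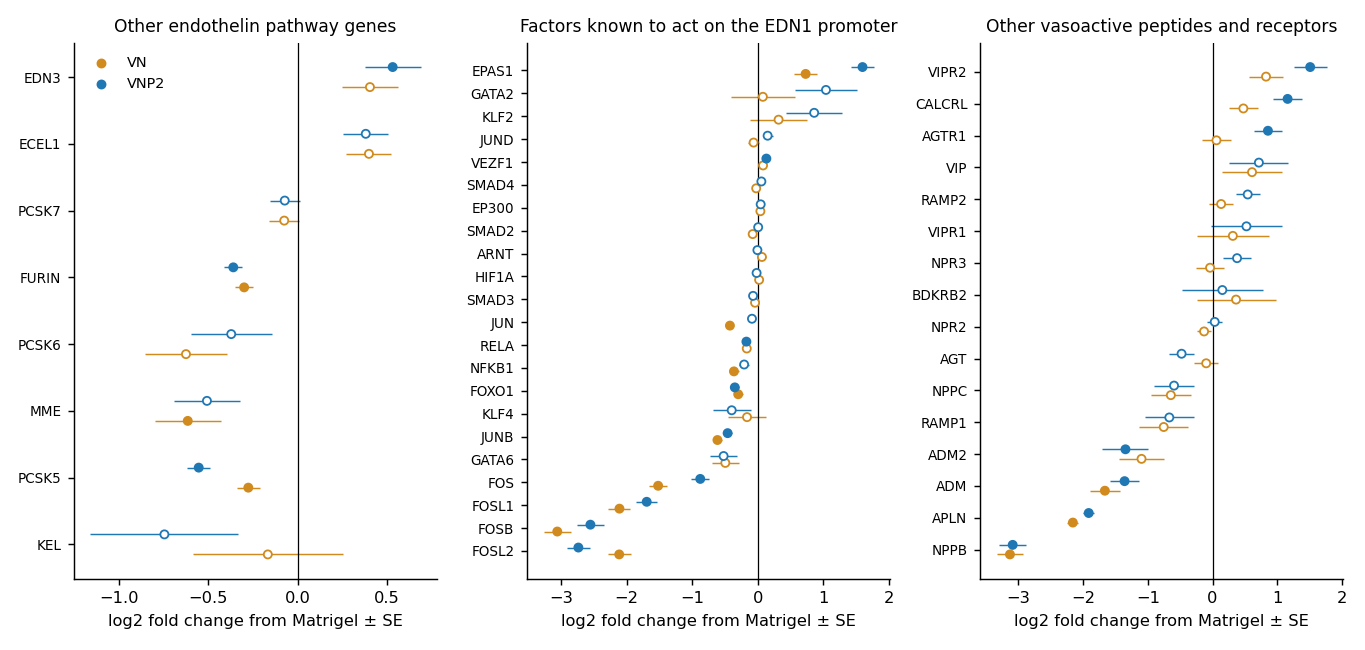
Log2 fold change from Matrigel with its SE for the tested genes of 3 lists on VN (orange) and VNP2 (blue); filled points passed an edgeR adjusted p of 0.05 and open points did not. FURIN and PCSK5 lie left of 0 and EDN3 right of it, FOSB and FOSL2 reach -3.06 and -2.73, and NPPB reaches -3.13.

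Markers of cell types that carry endothelin receptors were read beside the receptor values, and their counts stand beside 5.66% of all genes that rose and 9.60% that fell on VN, and 7.44 and 9.13% on VNP2. Of the radial glia and astrocyte markers, 9 of 12 were tested: on VN 2 rose and 3 fell, and on VNP2 4 rose and 3 fell. GJA1 fell by 0.82 and 0.59 and VIM by 0.46 and 0.24, SOX9 rose by 0.45 and 0.37, and SLC1A3 rose by 0.28 on VNP2 and had -0.17 on VN, which was not called. Their summed level was 3798 to 3879 TPM on Matrigel, 3212 to 3269 on VN and 3524 to 3566 on VNP2, while GFAP and AQP4 were at or below 0.297 TPM. Most of that sum was VIM, with means of 2530, 1946 and 2251 TPM. Of the mesenchymal markers, all 10 were tested: 3 rose and 2 fell on VN and 5 rose and 2 fell on VNP2. LUM rose by 0.58 on VN and 0.31 on VNP2 and DCN by 0.53 and 0.34, while COL1A1 fell by 0.54 and 1.41 and PRRX1 by 0.40 and 0.58. Their summed level was 511 to 522, 581 to 618 and 503 to 537 TPM.

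Of the neural crest and melanocyte markers, 8 of 12 were tested: 1 rose and 0 fell on VN, and 2 rose and 1 fell on VNP2, with summed levels of 59.7 to 60.5, 66.5 to 72.2 and 69.2 to 71.2 TPM. Without VN replicate 1, 1 fell on VN. Over all genes 5.66% rose and 9.60% fell on VN, and 7.44% rose and 9.13% fell on VNP2. The OPC counts below stand beside the same shares. On VNP2 TFAP2A, a neural crest transcription factor, rose by 0.999 (edgeR adjusted p = 0.00692), NGFR rose by 0.36 (edgeR adjusted p = 0.00259) and MITF, the melanocyte regulator, fell by 0.53 (edgeR adjusted p = 0.0314). DCT, a melanocyte enzyme, rose on VN by 0.29 (edgeR adjusted p = 0.00496) and was lower on VNP2 than on VN by a log2 fold change of -0.33 (edgeR adjusted p = 0.00258). The defining markers SOX10, FOXD3, PAX3 and TYR were too low to test, with 20, 28, 2 and 1 estimated counts over the 8 libraries. Of the OPC markers, 5 of 6 were tested: 2 rose and 0 fell on VN, and 5 rose and 0 fell on VNP2, with summed levels of 107 to 109, 136 to 138 and 138 to 145 TPM. On VNP2 CSPG4 rose by 0.66, OLIG1 by 0.41, NKX2-2 by 0.34 and PDGFRA by 0.33. The part of these cell types in the EDNRA and EDNRB values was not tested.

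The profiles nearest to EDNRA were those of XKR7, PIK3AP1, FGF19 and FGFR2, at root mean square differences between 0.066 and 0.069 log2 units. FGFR2, a growth factor receptor, held means of 1503, 1936 and 2553 normalized counts on Matrigel, VN and VNP2. Nearest to ECE1 were APOBEC3B, CELSR1, LRP2 and AURKA (0.038 to 0.049), and nearest to EDNRB were FKBP3, ZBTB5, TRO and IP6K2 (0.015 to 0.020).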

How the data were processed

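Polyadenylated RNA of 8 libraries was sequenced as stranded pairs. The authors trimmed reads with Trim Galore and ran Salmon on GENCODE release 32 (GRCh38.p13, per the submitters' processing notes). The deposited transcript files hold estimated counts, and the TPM values in these deposited files are Salmon's abundances. The deposited table of normalized counts per gene is a signal that the authors made with tximport and DESeq2 1.27.12. Of each library's estimated counts, 98.8 to 98.9% lay in transcripts matched by identifier to GENCODE release 29, the release used here for gene names. Transcripts with no match were left out. The matched EDNRA transcripts held 16.9 to 50.6% of its deposited counts, for a reason that was not tested, so its test used limma on the deposited table in place of the planned count test, a choice made after the data were seen. EDN1, EDNRB and ECE1 lay within 99.9 and 100.1% of the deposited values in every library.

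Counts were summed per gene, rounded, and fitted with length offsets and TMM in edgeR 4.0.16 (R 4.3.3, filterByExpr with a minimum count of 10 and total of 15, quasi-likelihood F-test, two-sided, Benjamini-Hochberg over 18201 genes per comparison, threshold 0.05), with all 8 libraries in 1 model. limma was version 3.58.1 with a pseudocount of 1, which understates changes of low genes. SEs of edgeR came from the fold change and its F statistic, those of limma are its moderated standard errors, and 95% intervals are approximate. The Matrigel comparisons share the same 2 Matrigel libraries. Nearest profiles used genes with a mean of at least 50 and a pseudocount of 0.5. Beside the members, the up to 4 called genes of each list with the largest change were named, with all genes of the endothelin list and all AP-1 subunits. Defining cell type markers and some uncalled ones were named to check labels. The members and lists were chosen with earlier results of these data known. On simulated counts for VNP2 against Matrigel (17952 genes), 200 of 200 changed and 6 unchanged genes were called. All changed genes were drawn from the more highly expressed genes and given a 2-fold change up or down. The simulated spread between replicates was the same for every gene (common dispersion 0.0037). Recovery at levels as low as EDN1 on VNP2, at differences as small as those of ECE1, EDNRA or EDNRB, or for genes that vary more was not tested. Alternatives were DESeq2 1.42.0, other normalizations and filters, limma, a replicate block and leaving out libraries. The authors' other experiments were not analysed here.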

Additional observations from a re-analysis of the deposited data

How the results depend on the processing

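Every fit kept the direction of ECE1, of EDNRA, of EDN1 and of EDNRB on VN and against VNP2. EDN1 on VN was -3.40 in limma with a pseudocount of 10. EDN1 on VNP2 against VN was called by DESeq2 (-0.80, adjusted p = 0.0419) and without a filter (-0.80, edgeR adjusted p = 0.0259). EDNRB was called by DESeq2 on VN (0.10, adjusted p = 0.0284) and between VNP2 and VN (-0.10, adjusted p = 0.0362). EDNRA on VNP2 was called by edgeR without a filter (0.92, adjusted p = 0.013), and limma with a pseudocount of 10 gave 0.33, 0.68 and 0.35. The cause of these differences was not tested. Replicate numbers gave no sign of pairing: correlations of deviations ran from -0.122 to 0.0608 between same numbers and from -0.1 to 0.137 between other numbers. Groups this small cannot exclude a pairing. With the replicate block, ECE1 on VN was called at -0.15 (edgeR adjusted p = 0.0267), EDNRB on VN at 0.11 (edgeR adjusted p = 0.0483), and EDNRA in limma at 0.32, 0.67 and 0.35 (limma adjusted p = 0.012, 0.000202 and 0.00901). Leaving out each library in turn, genes called ranged from 1188 to 3904 on VN, 1609 to 3609 on VNP2 and 547 to 1996 between VNP2 and VN. Without Matrigel replicates 2 and 3 they were 1226 and 1188 on VN and 1637 and 1609 on VNP2. Between VNP2 and VN they were 1996 without VN replicate 1, 583 and 578 without VN replicates 2 and 3, and 547 and 549 without VNP2 replicates 1 and 3. The members ranged as follows in edgeR: EDN1 from -3.73 to -3.55, -4.73 to -4.29 and -1.08 to -0.64; EDNRA from 0.039 to 1.64, 0.33 to 1.94 and 0.12 to 0.56; EDNRB on VN from 0.088 to 0.11 and between VNP2 and VN from -0.11 to -0.087; ECE1 on VN from -0.16 to -0.080. EDNRA in limma ranged from 0.29 to 0.35, 0.64 to 0.71 (0.6995 and 0.7005 without replicate 2 of Matrigel and of VNP2) and 0.31 to 0.39 (0.3684 and 0.3754 without VNP2 replicates 2 and 3). The share of the receptor ratio between coatings was 97.1% on deposited counts, and that of the planned ratio ranged from 18.6 to 78.7%, with 59.8% (exact permutation test, p = 0.0381) without VNP2 replicate 2. With 2 Matrigel libraries the spread there is the least certain, and EDN1 on VN and VNP2 is limited by its 20 to 51 estimated counts.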
